A study of Mus musculus with 4 samples.

Results

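The Robo receptors, their Slit ligands and the srGAP proteins that act downstream were followed in cerebral cortex RNA of C57BL/6 mouse embryos at embryonic day 15. The set was chosen by name and holds 10 genes (Robo1, Robo2, Robo3, Robo4, Slit1, Slit2, Slit3, Srgap1, Srgap2 and Srgap3) of the 19968 listed in both deposited tables. One group carried a conditional knockout of Prdm16 (Prdm16cKO), a zinc-finger transcriptional regulator of neural progenitors, and the control group carried the floxed allele (Prdm16fl/fl). The sources used here name neither the Cre line nor the deleted exon, and do not say whether libraries came from separate or pooled embryos. The tables held 2 libraries labelled cKO, called cKO 1 and cKO 2, and 1 library labelled floxed. The numbers are names only, and which of the 4 labelled samples each library came from is not known. In each group a sample has the word Blood in its title, and the titles do not explain the word. Whether any library used here came from such a sample is not known, so this label cannot be told apart from the differences below.

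Slits are secreted, leucine-rich repeat glycoproteins that repel axons and migrating neurons through Robo receptors, members of the immunoglobulin superfamily. Slit binding recruits srGAPs, whose F-BAR domains shape membranes. In the developing forebrain the pathway is known for guiding callosal, corticofugal and thalamocortical axons, for the migration of interneurons and for the control of progenitor division. Mammalian Robo3 is an unusual member that binds Slits poorly, responds to Nell2 and counteracts repulsion in commissural axons before they cross the midline. Robo4 is the receptor of endothelial cells, where it is known for stabilising vessels.

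The totals were 19514882 counts (cKO 1), 18579178 (cKO 2) and 17839662 (floxed). Levels are in CPM, counts scaled to these totals, and a floxed level always stands for 1 library. The targeted gene, Prdm16, had 34.6 CPM in cKO 1, 24.1 in cKO 2 and 30.2 in floxed, so its total goes against the label of cKO 1. The total is only a partial check, because exons outside the deleted part are still counted. All directions below therefore refer to libraries labelled cKO. These libraries also differed in other cells: the summed level of 10 meningeal and fibroblast markers was 1310 CPM in cKO 1, 89.0 in cKO 2 and 837 in floxed, and that of 5 microglia and macrophage markers was 96.4, 21.6 and 69.2 CPM. The cortical identity was clear in each library, with 7 excitatory neuron markers summing to between 2854 and 3022 CPM.

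A pair of gene neighbourhoods was of interest because the neighbours differed in direction. Srgap2 and Fam72a did so in both cKO libraries, and Robo3 and Robo4 in cKO 2 only. The bases before their start sites are shown for this reason. Robo3 (ENSMUSG00000032128, GRCm38 chromosome 9, 37415669 to 37433246, minus strand) and Robo4 (ENSMUSG00000032125, chromosome 9, 37401897 to 37415115, plus strand) lie tail to tail with 553 bases between them. Srgap2 (ENSMUSG00000026425, chromosome 1, 131285251 to 131527352, minus strand) lies head to head with Fam72a (chromosome 1, 131527903 to 131539872, plus strand), at a distance of 550 bases. The sequences are from RefSeq promoters of GRCm38.p6, 5′ to 3′ on the strand of each gene, and stop before the first base assigned to the gene. The windows are chr9:37433247-37433425 for Robo3, chr9:37401722-37401896 for Robo4, chr1:131527362-131527611 for Srgap2 and chr1:131527653-131527902 for Fam72a. Capitals mark matches on either strand to a GC box, spelled GGGCGG, or to a CCAAT box, spelled as its name. A search for TATA boxes, spelled TATAAA, was made in the same way.
Robo3: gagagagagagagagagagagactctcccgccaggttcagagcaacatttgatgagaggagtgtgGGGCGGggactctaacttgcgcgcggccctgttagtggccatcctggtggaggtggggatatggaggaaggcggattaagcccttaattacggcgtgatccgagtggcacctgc
Robo4: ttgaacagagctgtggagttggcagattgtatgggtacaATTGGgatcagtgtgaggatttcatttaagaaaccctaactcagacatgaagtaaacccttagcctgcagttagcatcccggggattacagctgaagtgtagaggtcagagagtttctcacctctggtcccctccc
Srgap2: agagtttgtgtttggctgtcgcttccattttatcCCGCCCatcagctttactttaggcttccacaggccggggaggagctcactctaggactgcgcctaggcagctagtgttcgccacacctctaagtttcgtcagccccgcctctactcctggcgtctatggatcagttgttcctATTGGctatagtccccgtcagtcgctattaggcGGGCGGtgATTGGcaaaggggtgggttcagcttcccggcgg
Fam72a: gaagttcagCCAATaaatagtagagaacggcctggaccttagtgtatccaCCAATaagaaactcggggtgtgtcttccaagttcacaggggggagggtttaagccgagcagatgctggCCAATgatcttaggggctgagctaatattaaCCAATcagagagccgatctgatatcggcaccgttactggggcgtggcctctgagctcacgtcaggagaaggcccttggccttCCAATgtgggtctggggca

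The Robo3 window held 1 GC box and no CCAAT box over 179 bases, and the Robo4 window 1 CCAAT box and no GC box over 175 bases. Of all RefSeq promoters, cut to the same length, 20.9% held a GC box and 24.8% a CCAAT box at the length of Robo3, and 20.2% and 24.1% at that of Robo4. GC content was 58.1% for Robo3 and 47.4% for Robo4, beside a median of 51.4% at either length. The Srgap2 window held 2 GC boxes and 2 CCAAT boxes over 250 bases, and the Fam72a window 5 CCAAT boxes and no GC box. At that length 32.7% of all promoters held a GC box, 33.8% a CCAAT box and 12.4% a TATA box, and none of the 4 windows held a TATA box. These matches describe letters in the windows and were not read as sites of binding.

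Across the set, Robo3 alone was higher than floxed in both libraries labelled cKO, by 3.04-fold and 2.32-fold, and 5 genes (Robo2, Slit3, Srgap1, Srgap2 and Srgap3) were lower in both. For Robo1, Robo4, Slit1 and Slit2 the floxed level lay between those of the cKO libraries. Floxed lay below both cKO libraries in 27.6% of the 16658 genes tested and above both in 31.9%, so positions of this kind are common among all genes. The edgeR quasi-likelihood test across all genes called 0 of the 10 members (adjusted p = 1 for each). It called 1 gene in all, Ptx3, which is 0.006% of those tested as higher, and 0 as lower. At an unadjusted p under 0.05, 2 members passed, Robo3 and Robo2, where 0.666% of all genes did so as higher and 0.864% as lower.

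**Figure D1:**
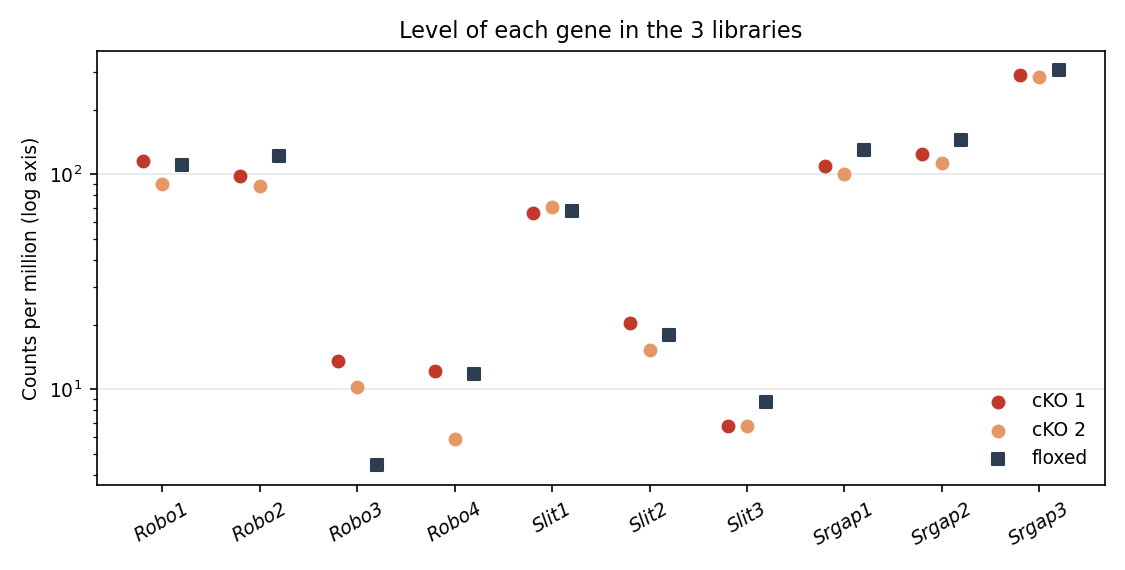
Level of each gene in CPM, on a log axis, with 1 point for each of the libraries cKO 1, cKO 2 (circles) and floxed (squares). Robo3 is the gene whose floxed point, at 4.43 CPM, lies below both cKO points, and Srgap3 is the most abundant in each library.

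Set against floxed alone, each cKO library gives a ratio with a 95% exact interval that covers counting error only. The interval lay above 1 for 1 member in cKO 1 (17.9% of all genes) and for 1 in cKO 2 (16.1%), Robo3 in each case. It lay below 1 for 5 members in cKO 1 (16.1% of all genes) and for 7 in cKO 2 (24.6%). Among the 11421 genes with a mean of at least 100 counts, a depth that every member reached, these shares were 20.3% in cKO 1 and 26.1% in cKO 2. Robo1, Robo2, Slit1 and the Srgap genes lay far above that depth, where intervals are narrower. These shares are therefore not matched to their depth. The median log2 ratio of the members was -0.06 in cKO 1 and -0.32 in cKO 2, beside 0.01 and -0.04 over all genes tested. Both comparisons share the floxed library, so an unusual value in that library would appear in each.

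**Figure D2:**
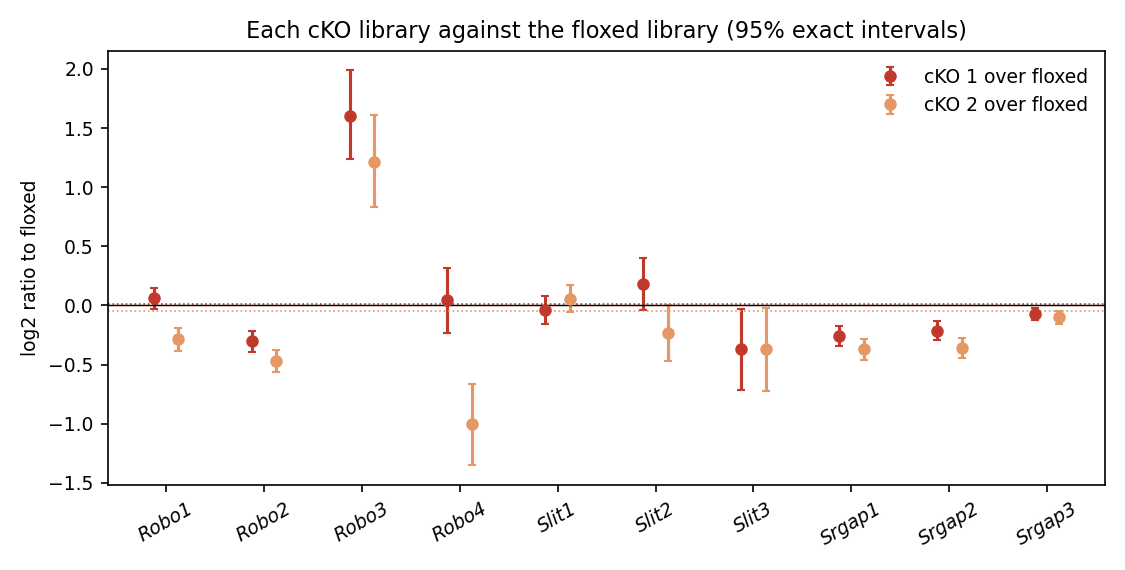
The log2 ratio of each cKO library to floxed for the 10 genes, with 95% exact intervals for counting error, and dotted lines at the medians of all tested genes. Robo3 stands above 0 at 1.61 and 1.22, Robo4 stands at 0.05 and -1.005, and the Srgap genes lie slightly below 0 in both libraries.

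Among the receptors, Robo3 stood at 13.5 CPM in cKO 1 (263 counts), 10.3 in cKO 2 (191 counts) and 4.43 in floxed (79 counts). Both cKO libraries were above floxed, and they also differed from each other beyond counting error (ratio of cKO 2 to cKO 1 between 0.630 and 0.923). The cKO mean was 11.9 ± 2.26 CPM (SD, n = 2). The ratio to floxed was 3.04 in cKO 1 (exact interval 2.36 to 3.96) and 2.32 in cKO 2 (1.78 to 3.06). Past 2-fold higher lay 2.53% of all genes in cKO 1 and 1.83% in cKO 2. Among genes with a mean of at least 100 counts these shares were 0.236% and 0.158%. Robo3 had 79 counts in floxed and reached that mean through its higher cKO counts. The smaller shares are therefore not a matched background for Robo3. The fitted log2 fold was 1.42 (SE 0.36, edgeR unadjusted p = 0.00435, adjusted p = 1), so the difference did not pass the test across all genes. In the authors' deposited tables, which compare 1 library with 1 library, Robo3 was marked significant in both. Such a comparison has no spread between libraries behind it. With cKO 2, Robo2 had a smaller adjusted p there than Robo3 and was not marked.

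Robo1 and Robo2, the main Slit receptors of forebrain neurons, lie on chromosome 16 and were far more abundant than Robo3. Robo1 (ENSMUSG00000022883, 72663149 to 73046095, plus strand) had 114.8 CPM in cKO 1, 90.3 in cKO 2 and 110.1 in floxed. Floxed lay between the cKO libraries, close to cKO 1, and only cKO 2 was lower beyond counting error (ratio 0.820, interval 0.768 to 0.876). For Robo1 the fit gave a log2 fold of -0.10 (SE 0.17, edgeR adjusted p = 1). Robo2 (ENSMUSG00000052516, 73892306 to 74411825, minus strand) had 98.5 CPM in cKO 1, 88.0 in cKO 2 and 121.6 in floxed. Here both cKO libraries were below floxed, with ratios of 0.810 (interval 0.761 to 0.861) and 0.723 (0.678 to 0.772). The fitted log2 fold of Robo2 was -0.38 (SE 0.14, edgeR unadjusted p = 0.0294, adjusted p = 1).

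Ratios of counts within a library do not depend on how libraries are scaled. Robo3 had 63.2 counts per 1000 counts of Robo1 and Robo2 together in cKO 1 (95% exact interval 55.6 to 71.6), 57.7 in cKO 2 (49.6 to 66.7) and 19.1 in floxed (15.1 to 23.9). The cKO libraries had overlapping intervals, and both stood above floxed, by 3.31-fold (interval 2.55 to 4.32) and 3.02-fold (2.30 to 3.99). The balance between the abundant receptors differed too: Robo1 had 1.17 counts per count of Robo2 in cKO 1, 1.03 in cKO 2 and 0.905 in floxed. Relative to floxed this ratio was 1.29 in cKO 1 (interval 1.18 to 1.41) and 1.13 in cKO 2 (1.03 to 1.24). No test across libraries stands behind these ratios, since floxed is 1 library.

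**Figure D3:**
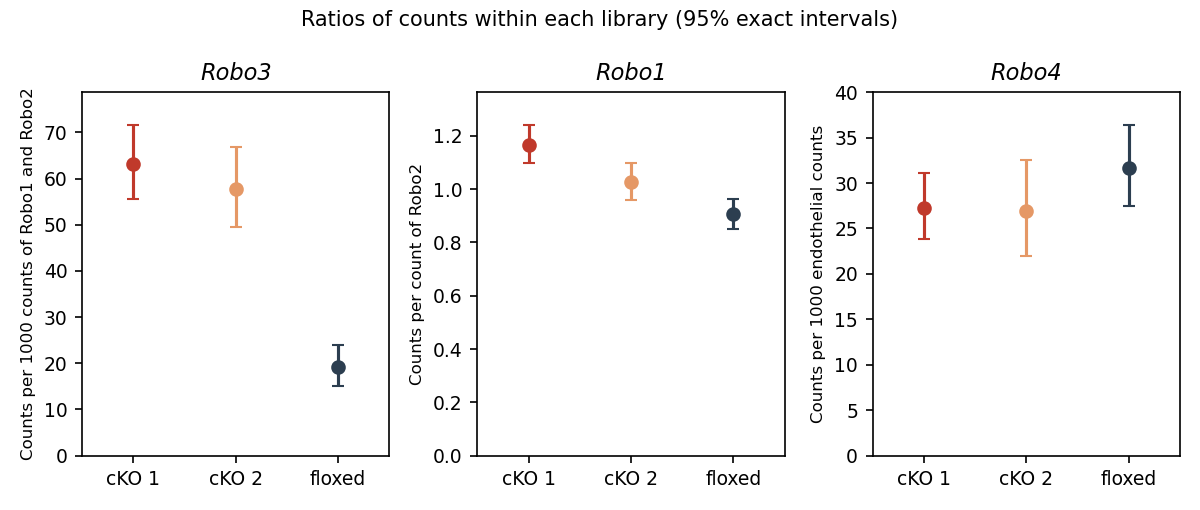
Ratios of counts within each library, with 95% exact intervals: Robo3 per 1000 counts of Robo1 and Robo2, Robo1 per count of Robo2, and Robo4 per 1000 counts of 14 endothelial genes. The Robo3 share is 63.2 and 57.7 in the cKO libraries and 19.1 in floxed, while the intervals for Robo4 overlap between all libraries.

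Robo3 is known to be expressed in several other neural regions, so markers of cells the dissection could hold were read beside it. The 6 markers of thalamus and habenula summed to 56.3 CPM in cKO 1, 48.4 in cKO 2 and 46.6 in floxed, with none at 0. Of the 5 tested, 2 were higher in cKO 1 and 1 in cKO 2 beyond counting error, and 1 was lower in cKO 2. The 6 Cajal-Retzius markers summed to 324, 372 and 326 CPM, with 0 higher and 1 lower in cKO 1 and 5 higher in cKO 2. The 6 radial glia markers summed to 1891 CPM in cKO 1, 1871 in cKO 2 and 1357 in floxed, and 4 of them were higher in each cKO library. By summed level, the thalamus and habenula list and the radial glia list had the order of libraries that Robo3 had, at smaller ratios. The single thalamus and habenula genes were divided in cKO 2, with a median log2 ratio of -0.18. There Lhx9 stood above floxed (24.1 against 17.8 CPM), while Tcf7l2, Lef1, Rora and Gbx2 had ratios below 1. The sums of the 7 excitatory neuron markers (3022, 2871 and 2854 CPM) had the order of Robo3 too, but their single genes were also divided. In cKO 1 the exact interval put 5 of these markers above floxed and 2 below it. In cKO 2 it put 2 above and 4 below, with a median log2 ratio of -0.05. The part of these lists in the Robo3 difference was not tested.

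The genes whose pair of log2 ratios lay nearest to that of Robo3, among 14625 genes of at least 1 CPM, were 1110032F04Rik, Gm26793 and Veph1. Likeness was the Euclidean distance between the pairs, which was 0.17, 0.20 and 0.20 on the log2 scale and rests on 3 libraries. Veph1, which encodes a pleckstrin homology domain protein, had 30.3 CPM in cKO 1, 23.0 in cKO 2 and 10.9 in floxed. The gene 1110032F04Rik had 9.43, 8.13 and 3.48 CPM, and the antisense gene Gm26793 had 3.13, 2.48 and 0.953 CPM. In all 3 the cKO libraries stood above floxed, as the choice by likeness to Robo3 fixes.

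Robo4 followed another order. Its level was 12.1 CPM in cKO 1 (237 counts), 5.87 in cKO 2 (109 counts) and 11.8 in floxed (210 counts). The library labelled cKO 1 did not differ from floxed beyond counting error (ratio 1.03, interval 0.853 to 1.25), and cKO 2 was lower, at a ratio of 0.498 (0.392 to 0.631). Past 2-fold lower in cKO 2 lay 7.83% of all genes. The cKO mean was 9.01 ± 4.44 CPM (SD, n = 2), with a fitted log2 fold of -0.39 (SE 0.43, edgeR adjusted p = 1). In the authors' deposited tables Robo4 was marked significant as lower with cKO 2 and was not marked with cKO 1. Without cKO 2 the log2 ratio is 0.05, so the lower mean rests on that library.

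By summed level the other endothelial genes had the same order of libraries. The 14 markers summed to 444.8 CPM in cKO 1, 218 in cKO 2 and 371 in floxed, with none at 0, and all 14 were lower in cKO 2 beyond counting error while 8 were higher in cKO 1. Cdh5, the endothelial cadherin, had log2 ratios of 0.66 and -1.02, Tie1, an orphan receptor kinase, 0.15 and -0.94, and Cldn5, a tight junction claudin, 0.07 and -0.55. In cKO 1 Robo4, at 0.05, lay below these 3 genes and within the range of all 14 markers, and in cKO 2 it lay within the range of all 14. Per 1000 counts of the 14 endothelial genes, Robo4 had 27.3 counts in cKO 1 (interval 23.9 to 31.1), 26.9 in cKO 2 (22.0 to 32.5) and 31.7 in floxed (27.5 to 36.4). Relative to floxed this was 0.861 in cKO 1 (0.710 to 1.04) and 0.848 in cKO 2 (0.664 to 1.08), so against its own cell type a difference of Robo4 was not detectable at this depth in either library. In bulk RNA, fewer cells of a type and less RNA per cell cannot be told apart.

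**Figure D4:**
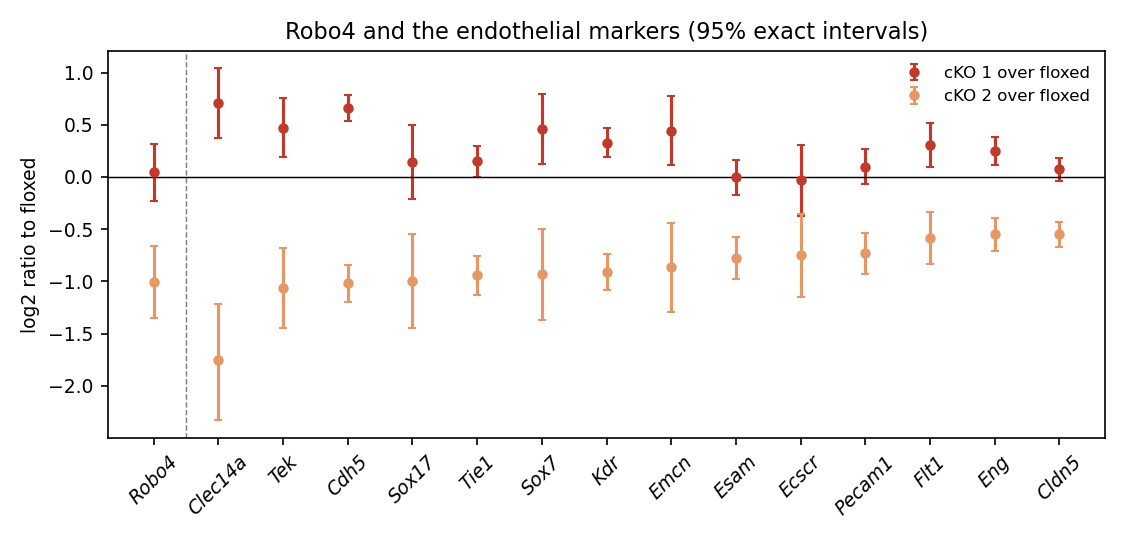
The log2 ratio of each cKO library to floxed for Robo4, left of the dashed line, and for 14 endothelial markers, ordered by their ratio in cKO 2, with 95% exact intervals. All 14 markers and Robo4 lie below 0 in cKO 2, and Robo4, at -1.005, lies inside the range of the markers.

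Robo3 and Robo4, whose sequences are shown above, thus differed in direction in cKO 2, at log2 ratios of 1.22 and -1.005 across 553 bases. Their exons do not overlap in GENCODE M21. The library kit does not mark strand, so reads that run past the end of either gene could not be assigned by strand, and their share was not measured. The next listed gene beyond Robo4, Hepacam, a glial cell adhesion gene, lies 15321 bases away and had 5.12 CPM in cKO 1, 4.31 in cKO 2 and 4.88 in floxed, with ratios within counting error.

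Among the ligands, Slit1 and Slit2 had fitted folds near 0, and Slit3 is described after them. Slit1 (ENSMUSG00000025020, chromosome 19, 41600257 to 41743665, minus strand), a brain-enriched Slit, had 65.8 CPM in cKO 1, 70.3 in cKO 2 and 67.6 in floxed. Neither cKO library differed from floxed beyond counting error, with ratios of 0.973 (interval 0.899 to 1.05) and 1.04 (0.962 to 1.13). Slit2 (ENSMUSG00000031558, chromosome 5, 47983138 to 48307733, plus strand), a ligand of midline and ventral forebrain, had 20.3, 15.3 and 17.9 CPM. Its ratio was 1.13 in cKO 1 (0.976 to 1.32) and 0.852 in cKO 2 (0.724 to 1.003), neither beyond counting error, although the cKO libraries differed from each other (ratio of cKO 2 to cKO 1 between 0.643 and 0.877). Slit1 and Slit2 had fitted log2 folds of 0.01 (SE 0.14) and -0.01 (SE 0.26), the sign of Slit2 turning with TMM scaling and with DESeq2. AI606181, which lies 4098 bases from Slit1, had 34.9 CPM in cKO 1, 29.8 in cKO 2 and 36.5 in floxed. It was lower beyond counting error in cKO 2 (ratio 0.816, interval 0.727 to 0.915) and not in cKO 1 (0.956, 0.858 to 1.07).

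Slit3 (ENSMUSG00000056427, chromosome 11, 35121224 to 35708507, plus strand), which is also expressed in tissues outside the nervous system, had 6.71 CPM in cKO 1 (131 counts), 6.73 in cKO 2 (125 counts) and 8.69 in floxed (155 counts). The cKO libraries were nearly equal and both lay below floxed, at ratios of 0.773 (interval 0.608 to 0.981) and 0.774 (0.607 to 0.986). With TMM-scaled library sizes the interval of Slit3 in cKO 2 held 1. For Slit3 the fit gave a log2 fold of -0.37 (SE 0.33, edgeR adjusted p = 1). Markers of mesenchymal, choroid plexus and hem cells were read beside Slit2 and Slit3. The 8 choroid plexus and hem markers summed to 1035 CPM in cKO 1, 328 in cKO 2 and 1054 in floxed, of which Ttr, the choroid plexus transthyretin, made up 973, 295 and 996 CPM. In cKO 2, 4 of the 8 were lower beyond counting error and 1, Rspo1, was higher (ratio 1.31, interval 1.02 to 1.70). Beyond counting error all 10 meningeal markers stood above floxed in cKO 1 and below it in cKO 2. The 8 pericyte and smooth muscle markers summed to 249.7, 140.5 and 213.7 CPM, with 1 at 0 counts in cKO 2. Slit2 had the order of libraries of the summed meningeal markers, with a ratio of cKO 2 to cKO 1 of 0.751 (interval 0.643 to 0.877), and for Slit3 this ratio was 1.002 (0.778 to 1.29). The part of these cells in the levels of Slit2 and Slit3 was not tested.

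The srGAP genes formed the most even group, with all 3 slightly lower in both libraries labelled cKO. Srgap1 (ENSMUSG00000020121, chromosome 10, 121780991 to 122047315, minus strand) had 108.9 CPM in cKO 1, 100.8 in cKO 2 and 130.3 in floxed. Both cKO libraries were below floxed, at ratios of 0.836 (interval 0.788 to 0.887) and 0.773 (0.727 to 0.822), with a fitted log2 fold of -0.31 (SE 0.14, edgeR unadjusted p = 0.0527, adjusted p = 1). Srgap2, known for its part in neuronal migration and spine maturation, had 124.5, 112.7 and 144.6 CPM. Its ratios were 0.861 (0.815 to 0.911) and 0.779 (0.735 to 0.826), and the fitted log2 fold was -0.29 (SE 0.14, unadjusted p = 0.0735, adjusted p = 1). Srgap3 (ENSMUSG00000030257, chromosome 6, 112717971 to 112947266, minus strand), also known as WRP, had 289.3 CPM in cKO 1, 283.7 in cKO 2 and 304.1 in floxed. Its ratios of 0.951 (0.916 to 0.988) and 0.933 (0.898 to 0.969) were the nearest to 1 among the srGAP genes. Gm26799, which lies 13302 bases from Srgap3, was near the limit of detection, with 4 and 5 counts in the cKO libraries and 3 in floxed.

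Within libraries Srgap1 and Srgap2 were also lower relative to Srgap3. Srgap1 had 377 counts per 1000 counts of Srgap3 in cKO 1, 355 in cKO 2 and 428 in floxed, and Srgap2 had 430.4, 397 and 475. Relative to floxed the Srgap1 ratio was 0.879 (interval 0.819 to 0.943) and 0.829 (0.771 to 0.891), and the Srgap2 ratio 0.905 (0.846 to 0.968) and 0.835 (0.779 to 0.896). Robo1, Robo2 and Srgap1 are known to be expressed in cortical interneurons among other neurons, and the 9 interneuron markers summed to 624 CPM in cKO 1, 571 in cKO 2 and 697 in floxed. Of these, 4 were lower in cKO 1 and 7 in cKO 2 beyond counting error, 0 were higher and none was at 0. Of all genes 16.1% were lower in cKO 1 and 24.6% in cKO 2. By summed level that list had the order of libraries of Robo2, Srgap1, Srgap2 and Srgap3. The order was not particular to interneuron markers. The choroid plexus and hem list had it too (1035, 328 and 1054 CPM), while the meningeal and endothelial lists did not. The interneuron list did not have the order of Robo1, whose level was higher in cKO 1 than in floxed. The part of interneurons in these levels was not tested.

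Fam72a, the head-to-head neighbour of Srgap2, went the other way. Its level was 3.33 CPM in cKO 1 (65 counts), 3.55 in cKO 2 (66 counts) and 1.91 in floxed (34 counts). Both cKO libraries were above floxed, at ratios of 1.75 (interval 1.14 to 2.73) and 1.86 (1.21 to 2.91), with a fitted log2 fold of 0.85 (SE 0.48, edgeR adjusted p = 1). On the other side of Srgap2, Ikbke, an IKK-related kinase, had 2.31, 1.29 and 2.63 CPM. Its ratio to floxed was 0.875 in cKO 1 (0.568 to 1.35) and 0.490 in cKO 2 (0.287 to 0.818), lower beyond counting error in cKO 2 only. Small stretches of srGAP exons overlap other annotated genes, 1.43% of the exon bases of Srgap1 and 1.52% of those of Srgap3, and the overlapping genes had at most 9 counts in any library.

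Levels can be compared between genes only per length, here CPM per kilobase of the union of annotated exons, as the median of the 3 libraries. Srgap3 was highest at 29.4, above the range of every other member. Srgap1 (11.9), Slit1 (11.4) and Srgap2 (9.91) followed, and the range of Slit1 overlapped those of Srgap1 and Srgap2. Robo1 (6.67) and Robo2 (5.80) overlapped with each other and lay below the srGAP genes on this length. Robo4 (2.22), Robo3 (1.501) and Slit3 (1.11) came next, with Robo3 spanning 0.647 in floxed to 1.97 in cKO 1. By this median Slit2 was lowest at 0.705, a value that depends on its exon union of 25.4 kb. In floxed alone, Robo3 at 0.647 lay below Slit2 at 0.705. With its longest coding transcript (9.96 kb), a length chosen after seeing the data, Slit2 stood at 1.80, above Slit3 at 1.29. On that length Robo1 stood at 14.6, between Srgap2 at 15.5 and Srgap1 at 14.0, and Robo2 at 11.5, so the place of Robo1 against Srgap1 depends on the length used.

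Between the libraries labelled cKO, 7 of the 10 members were lower in cKO 2 than in cKO 1 beyond counting error (Robo1, Robo2, Robo3, Robo4, Slit2, Srgap1 and Srgap2), and 0 were higher. Among all genes 27.4% were lower in this comparison and 17.0% higher. Intervals are narrower at high counts, such as those of Robo1, Robo2, Slit1 and the Srgap genes. The shares of all genes are therefore not matched to the depth of the members here either. Among the members, Robo4 had the lowest ratio of cKO 2 to cKO 1, 0.483 (interval 0.381 to 0.609), and Slit1 the highest, 1.07 (0.989 to 1.16).

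Other genes of the pathway were read from 3 lists. Of 20 intracellular effectors and adaptors, 0 were called by edgeR and 0 had an unadjusted p under 0.05, with a median log2 ratio of 0.01 in cKO 1 and -0.03 in cKO 2. Beyond counting error 6 were higher and 5 lower in cKO 1, and 1 was higher and 7 lower in cKO 2. Of all genes 17.9% were higher and 16.1% lower in cKO 1, and 16.1% were higher and 24.6% lower in cKO 2. Nck1, an SH2 and SH3 adaptor that binds Robo, had 18.1 CPM in cKO 1, 15.5 in cKO 2 and 13.7 in floxed, and its paralog Nck2 had 72.6, 74.6 and 80.8. The actin regulator Enah, the mammalian Enabled, had 212, 209 and 189 CPM, and its relative Evl had 342, 356 and 383.

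Of 19 co-receptors, other ligands and matrix partners, 0 were called and 2 had an unadjusted edgeR p under 0.05. Of all genes 0.666% passed that limit as higher and 0.864% as lower. The median log2 ratios were -0.04 and -0.16, with 5 higher and 7 lower in cKO 1 and 3 higher and 10 lower in cKO 2 beyond counting error. The shares of all genes are those given for the effectors. The 2 genes with an unadjusted p under 0.05 were Hs2st1 and Ndst1, which lay in opposite directions. Hs2st1, a heparan sulfate 2-O-sulfotransferase, had 110.2 CPM in cKO 1, 106.6 in cKO 2 and 84.2 in floxed (unadjusted p = 0.0325, adjusted p = 1), and Ndst1, an N-deacetylase and N-sulfotransferase, had 98.6, 76.2 and 121.7 CPM (unadjusted p = 0.0280, adjusted p = 1). Flrt1, a leucine-rich repeat transmembrane protein, had 11.5, 10.5 and 15.6 CPM, and the chemokine receptor Cxcr4 had 45.4, 52.4 and 45.1 CPM.

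Of 8 trafficking and cleavage genes 7 were tested and 0 called, with median log2 ratios of -0.05 and -0.06. Usp33, a deubiquitinase that binds Robo1, had 9.07 CPM in cKO 1, 7.70 in cKO 2 and 10.6 in floxed. Ndfip1, an adaptor of Nedd4-family ubiquitin ligases, had 127.8, 125.6 and 124.4 CPM. Over all genes tested the medians were 0.01 in cKO 1 and -0.04 in cKO 2.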

How the data were processed

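RNA was extracted with Trizol from cortex and libraries were made with a TruSeq RNA kit, per the labels' protocols. The authors deposited raw counts per gene beside their own log2 fold and adjusted p-value for 1 library against 1 library, per the file headers. The submitters' processing notes name Bowtie2 2.2.3, TopHat2 2.0.12, HTSeq 0.6.0 and mm9. Positions in the tables overlapped those of GENCODE M21 (GRCm38) for 19896 of the 19920 genes matched by ID, and are given as GRCm38. For the counting options and the authors' test the sources used here give nothing. Columns were assigned to groups by the KO or WT in their names. The floxed column was identical in both tables and used once.

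Counts were scaled to library totals and tested with edgeR 4.0.16 in R 4.3.3 (minimum count 10, 16658 genes, all 10 members kept, p-values adjusted over all genes by Benjamini-Hochberg). The fit has 1 residual degree of freedom: spread is estimated between cKO 1 and cKO 2, and floxed is taken to share it. SE is the fitted log2 fold divided by the square root of F. No source states that libraries were separate animals, and p-values may therefore reflect technical spread only. Intervals are exact (Clopper-Pearson, 95%) and cover counting error only, as reads carry no molecular identifiers. A count of 0 would allow up to 0.154 to 0.168 CPM (3 counts). The test was checked on simulated data. Named genes were all members, the genes within 20 kb, up to 4 genes per pathway list (the largest shared ratios above 5 CPM, at most 2 in each direction) and the 3 genes nearest to the member with the largest fitted fold. One gene that this rule names is not reported here. Cdh5, Tie1, Cldn5 and the marker sums were chosen after their values were seen. Members, lists and rules were chosen with earlier results of these data known. Alternatives were TMM scaling, DESeq2 1.42.0, limma-voom (limma 3.58.1), other filters, other library totals, other denominators and leaving out a cKO library.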

Additional observations from a re-analysis of the deposited data

How the results depend on the processing

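No member was called under any of the 6 fits, whose smallest adjusted p for a member was 1. Over all genes, edgeR with library totals called 1 gene and limma-voom 1. edgeR called 0 with TMM scaling (217 genes at an unadjusted p under 0.05), 0 without a filter on low counts (412) and 0 with a mean of at least 1 CPM (213), while DESeq2 called 5, none of them a member. The fitted log2 fold of Slit2, -0.0096, turned to 0.0050 with TMM scaling and 0.0045 with DESeq2, so it has no stable direction, and all other members kept their sign under these fits. Leaving out a cKO library gave Robo3 a log2 ratio of 1.22 to 1.61, Robo2 of -0.47 to -0.30, Robo1 of -0.29 to 0.06 and Robo4 of -1.005 to 0.05. The mean log2 ratio of Robo3 counts per Robo1 and Robo2 counts, 1.66, was 1.52 with Robo1 alone below the line and 1.80 with Robo2 alone. That of Robo4 per endothelial count, -0.23, was -0.18 with the geometric mean of the list. Totals over shared genes moved no member across the limit of counting error, and with TMM-scaled sizes Slit3 in cKO 2 came to lie within it, which left 6 members lower in place of 7. TMM moved the median fitted fold of all genes from -0.0094 to 0.0085. No paired analysis was possible because only 1 floxed library was available for both comparisons, and the library numbers are names that give no pairing. With 1 floxed library, its own spread cannot be measured, and differences as small as those of the Srgap genes rest on counting error only.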
